A study of Mus musculus with 64 samples.

Results

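The nuclear-encoded subunits of the oxidative phosphorylation machinery were followed through 64 mRNA libraries of mouse regulatory T (Treg) cells and of cells that carry a Foxp3 allele but cannot make the protein. Members were all gene names that begin with Nduf a, b, c, s or v and a digit, Sdha to Sdhd, and all names that begin with Uqcr, with Cox4 to Cox8 or with Atp5. This gave 104 of 55809 gene rows, and 90 once names marked -ps were dropped. By complex these were 40 names of complex I, 4 of complex II, 8 of complex III, 21 of complex IV (Ndufa4 and Ndufa4l2 counted here) and 17 of complex V. Members were kept where their counts averaged 50 or more in a comparison, a limit that 79 names met over the 44 reversible-allele and GFP Treg libraries, and 78 met in the 12 adult and in the 8 infant degron libraries. The 79 were 37, 4, 8, 13 and 17 names of complexes I to V. The 11 names below 50 over the 44 libraries were Cox7a1, Cox6b2, Cox6a2, Cox4i2, Cox7b2, Cox8b, Cox8c, Ndufa4l2, Ndufa11b, Ndufb11b and Ndufs6b, with mean counts from 0.318 to 41.8. The pair on either side of the limit were Cox6c2, a processed pseudogene with a mean count of 68.5, and Cox7a1 with 41.8. Cox6c2 and the other processed pseudogene retained, Ndufb4c, share sequence with Cox6c and Ndufb4, so their counts are uncertain: Cox6c2 averaged 2.58 counts in the adult degron files, which kept only reads of high mapping quality.

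In the reversible system, heterozygous females carried a Foxp3-LSL allele, in which a loxP-flanked Thy1.1-STOP cassette blocks a Foxp3-GFP gene, with or without a CreERT2 at the Cd4 locus. Cells sorted from spleen and lymph nodes as resting or active "Treg wannabe" cells were untreated (day 0) or came 3, 7, 14 or 28 days after 4-hydroxytamoxifen, with 2 libraries per group: minusFoxp3 (labelled Foxp3-LSLCD4-WT, Thy1.1+ GFP-) and plusFoxp3 (labelled Foxp3-LSLCD4-CreERT2, GFP+ once recombined). All these mice were adults. Resting and active Foxp3GFP Treg cells from untreated mice were the reference, again with 2 libraries each. In the degron system every animal carried Foxp3-AID and received 5-ph-IAA for 7 days, with ROSA26-TIR1(F74G), switched on by an iCre in the Foxp3 allele itself, or ROSA26-WT. TIR1 and WT had 3 libraries each of thymic CD73- Treg cells and of active CD44-high Treg cells of heterozygous adult females, and 4 each from infants. For its neonatal work the paper names hemizygous Foxp3-AID/y males, in which continued degradation brought severe autoimmune disease. In infants, Foxp3 loss within the cell and inflammation of the animal thus cannot be told apart. The labels number the libraries but do not say that each came from its own animal, so the p-values below measure the spread between libraries. The infant libraries carry titles that disagree with their genotype field in all 8 cases, and are called titled TIR1 and titled WT. The alignments named in their headers go with the titles. The 12 adult degron files name, in their headers, libraries of the other genotype than the sample they are attached to. They are used by header, and with the attachment as recorded where that changes a call.

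Total counts were 35097257 to 57419138 per library in the reversible set, 27753211 to 34029692 in the adult and 33704114 to 55801009 in the infant degron set. Foxp3 was 43.1 to 82.2 CPM (read counts as a share of the library, scaled by the trimmed mean of M-values, TMM) in the 24 minusFoxp3 and day 0 libraries and 428.5 to 809 in the other 20 of the reversible set. The degron acts on the protein. Foxp3 mRNA was 80.0 to 93.0 CPM in TIR1 and 105 to 131 in WT active degron libraries, 140 to 163 and 142 to 175 in thymic ones, and 323 to 378 and 294 to 423 in infant titled TIR1 and titled WT libraries, so the groups separated in active cells alone. In the reversible set the summed CPM of 5 T cell markers was 5302 to 6956, that of 4 B cell markers at most 47.8 and that of 4 myeloid markers at most 19.2. The degron files were counted with a mapping quality minimum of 30 and the reversible files without one, so levels are not compared between the sets.

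Oxidative phosphorylation transfers electrons from NADH (complex I) and from succinate (complex II) to ubiquinone, then through complex III and cytochrome c to complex IV, which reduces oxygen. Complexes I, III and IV pump protons across the inner mitochondrial membrane, and complex V, the ATP synthase, uses their return to make ATP. Complex II is made from nuclear genes alone, whereas the other 4 also hold subunits encoded by mitochondrial DNA. Treg cells are known to rely on this route more than conventional effector T cells do. Many of the nuclear genes carry promoter elements for NRF1, for ETS factors of the GABP kind and for YY1.

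For 65 of the 79 members a RefSeq promoter (GRCm38.p6) could be matched, giving 70 windows from 250 bases before to 50 bases after the start site. The NRF1 element GCGCATGCG was found on either strand in 8 of the 70 windows, or 11.4%, and in 1.75% of 32851 promoters of all genes. The ETS element CCGGAAGT was in 7.14% against 3.89%, and the YY1 element AAGATGGCG in 10% against 1.4%. Any of the 3 was in 27.1% of member windows and 6.69% of all promoters. A match of letters does not show binding. Below are 4 members that recur in the results, each 5′ to 3′ on its own strand, with elements in capitals: an accessory complex III subunit with NRF1 and ETS letters, a core complex III subunit with overlapping NRF1 matches on both strands, a small ATP synthase subunit with YY1 letters, and Cox7a2l, which had none of the 3.
Uqcr11: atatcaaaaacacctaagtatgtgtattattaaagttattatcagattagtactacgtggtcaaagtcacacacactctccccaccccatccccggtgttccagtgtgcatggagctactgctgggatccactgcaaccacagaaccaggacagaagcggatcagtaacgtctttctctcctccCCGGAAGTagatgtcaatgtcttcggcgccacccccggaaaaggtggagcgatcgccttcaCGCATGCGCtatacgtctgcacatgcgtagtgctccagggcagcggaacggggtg
Uqcrc1: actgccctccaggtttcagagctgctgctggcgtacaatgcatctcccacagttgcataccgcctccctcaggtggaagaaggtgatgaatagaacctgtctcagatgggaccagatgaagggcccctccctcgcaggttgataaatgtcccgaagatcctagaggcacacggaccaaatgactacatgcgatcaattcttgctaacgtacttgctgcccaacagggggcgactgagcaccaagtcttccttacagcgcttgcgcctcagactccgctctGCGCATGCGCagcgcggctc
Atp5j2: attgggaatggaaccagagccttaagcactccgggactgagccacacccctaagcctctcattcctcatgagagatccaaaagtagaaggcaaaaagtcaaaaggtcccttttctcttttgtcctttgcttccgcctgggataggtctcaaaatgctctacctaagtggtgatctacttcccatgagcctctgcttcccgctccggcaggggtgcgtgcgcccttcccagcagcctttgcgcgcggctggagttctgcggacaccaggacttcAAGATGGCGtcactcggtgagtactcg
Cox7a2l: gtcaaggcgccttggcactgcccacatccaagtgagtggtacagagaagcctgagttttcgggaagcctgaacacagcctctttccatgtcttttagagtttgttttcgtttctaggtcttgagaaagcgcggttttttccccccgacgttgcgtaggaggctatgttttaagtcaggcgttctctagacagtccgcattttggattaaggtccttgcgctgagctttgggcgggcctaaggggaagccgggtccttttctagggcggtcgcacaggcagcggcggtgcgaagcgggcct
The windows lie at chr10:80406772-80407071 (minus strand) for Uqcr11, chr9:108936398-108936697 (plus strand) for Uqcrc1, chr5:145191492-145191791 (minus strand) for Atp5j2 and chr17:83514284-83514583 (minus strand) for Cox7a2l.

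Levels per kilobase of exon differed widely between subunits of the same complex, in part through the exon lengths used as divisor. As mean CPM per kilobase of exon over the 44 libraries, Cox6a1 of complex IV was at 423, Atp5b, the catalytic beta subunit of ATP synthase, at 306, its alpha partner Atp5a1 at 287, Cox8a at 286 and Cox4i1 at 254. Within complex I, Ndufa1 was at 245 on that scale, the NADH-binding Ndufv1 at 52.1 and the iron-sulfur subunit Ndufs1 at 15.2. The flavoprotein Sdha and the iron-sulfur protein Sdhb of complex II were at 94.9 and 104. In complex III the core protein Uqcrc1 was at 86.7 and the Rieske protein Uqcrfs1 at 99.3. In plain CPM the largest was Atp5b with 1298 ± 108 (SD, n = 44), followed among the subunits above by Atp5a1 with 900 ± 93.2, Cox4i1 with 394 ± 71.6 and Sdha with 391 ± 43.8. Ndufa1, Ndufv1 and Ndufs1 lay much closer in plain CPM, at 103, 137 and 123. Their annotated exon lengths were 419, 2634 and 8086 bases. The spread of these complex I subunits per kilobase thus came from the divisor and is no evidence of different levels. All members together held 1.01% to 1.79% of a reversible library's counts.

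The mean of the members (log2 CPM, averaged over members) lay between 6.36 and 7.40 in the 44 libraries, with a median of 6.73. Libraries of 1 group differed more than groups did: the pooled SD within groups was 0.227 and the SD of the 22 group means 0.130. The same held for each complex, with within-group SDs of 0.244 for complex I, 0.130 for II, 0.215 for III, 0.247 for IV and 0.212 for V against SDs of group means of 0.135, 0.0715, 0.125, 0.143 and 0.137. Replicate 1 was the higher in 11 of 11 resting groups and in 8 of 11 active groups. The gap had a median of 0.267 in resting and 0.235 in active groups, and was widest, at 0.919, in active minusFoxp3 cells of day 7. In bulk RNA, fewer cells of a type and less RNA per cell cannot be told apart.

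**Figure D1:**
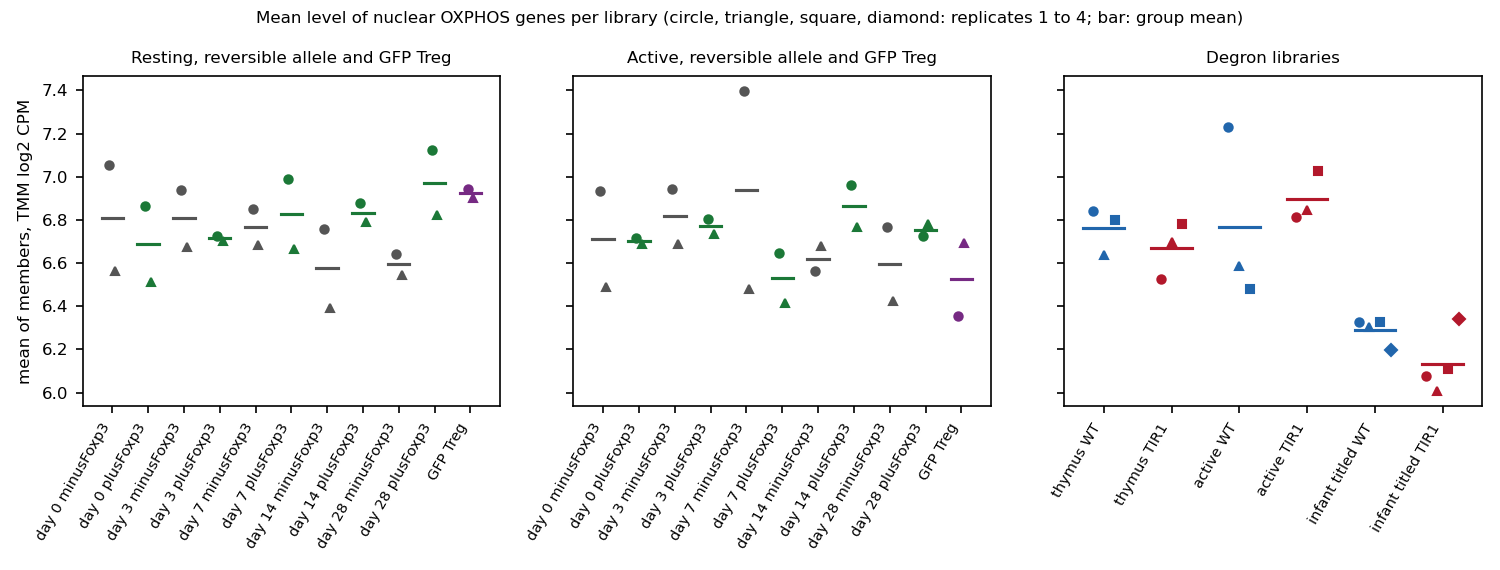
Mean log2 CPM of the members in each library (y axis), by group (x axis), in panels for resting, active and degron groups; symbols stand for the replicate number and bars for the group mean. The 2 resting day 28 plusFoxp3 libraries (7.12 and 6.82) lie above the minusFoxp3 pair (6.64 and 6.55), and the highest point is an active day 7 minusFoxp3 library at 7.40.

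Whether return of Foxp3 shifts these genes in resting cells was asked at each day by plusFoxp3 against minusFoxp3. No member passed an adjusted p of 0.05 at any day by edgeR (0 called) or by DESeq2 (0 called). At day 28 the 2 plusFoxp3 libraries had member means of 7.12 and 6.82, above the 6.64 and 6.55 of minusFoxp3. The median log2 difference of 80 members was 0.43, with 78 of 80 above 0, against 0.00 over all genes tested. None was called among these 80, beside 0.945% of 20520 genes. At an unadjusted p under 0.05, 29 members were higher and 0 lower, beside 8.9% of all genes in either direction. The lowest adjusted p was 0.334. The 29 were 9 of 37 complex I, 1 of 4 complex II, 4 of 8 complex III, 7 of 14 complex IV and 8 of 17 complex V members. Without plusFoxp3 replicate 1 the median was 0.25, and it ranged from 0.25 to 0.56 when 1 library was left out. The count of 29 did not hold without plusFoxp3 replicate 1 or without either minusFoxp3 library. Other marker lists moved in the same comparison. The summed level of 5 proliferation genes (Mki67, Top2a, Cdk1, Ccnb1, Birc5) was 136 to 370 CPM in plusFoxp3 and 70.4 to 107 in minusFoxp3 libraries, with 5 of 5 genes above 0 in log2 difference. S1pr1, Tcf7 and Ccr7, genes of resting T cells, were called lower. Their part in the result was not tested.

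Single members at day 28 show the shape of this difference. Cox7a2, the common isoform of a small complex IV subunit, was at 168 and 124 CPM in the plusFoxp3 libraries and at 95.1 and 97.7 in minusFoxp3 (log2 difference 0.60, SE 0.22, adjusted p = 0.358). Ndufa4 was at 231 and 167 against 143 and 120 (0.60, SE 0.23, adjusted p = 0.402). Uqcr11, whose promoter is printed above, was at 127 and 92.9 against 68.3 and 67.6 (0.69, SE 0.29, adjusted p = 0.456). In each of these 3 plusFoxp3 replicate 1 was the highest library and the groups did not overlap. With 2 libraries a group, such a gap can readily arise by chance. Cox5a of complex IV was at 120 and 83.9 against 68.4 and 63.8, and Cox7b at 175 and 136 against 113 and 105. Atp5j2 of the ATP synthase membrane part was at 234 and 180 against 137 and 134, and Atp5g3, which encodes the proton-carrying c subunit, at 457 and 348 against 300.4 and 277. Ndufc1, a small complex I accessory subunit, had the lowest p of the members, with 76.8 and 51.8 against 44.4 and 40.3 CPM (0.60, SE 0.21, adjusted p = 0.334).

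The large catalytic subunits differed less. Atp5b was at 1411 and 1376 CPM in plusFoxp3 and at 1304 and 1191 in minusFoxp3 (log2 difference 0.16, SE 0.12). Atp5a1 was at 1040 and 1036 against 915 and 848 (0.24, SE 0.13). Uqcrc1 was at 382 and 368 against 338 and 334, and Ndufv1 at 137 and 138 against 134 and 129. These 4 differed by at most 0.24 on the log2 scale. Sdha was on the other side, at 353 and 360 against 430.2 and 380 (-0.18, SE 0.14), and Ndufs1 overlapped, at 114 and 134 against 139 and 120. Split by coding length, 64 members under 1000 bases had a median of 0.46, with 27 at an unadjusted p under 0.05, and 12 members of 1000 bases or more had 0.18, with 1. Other protein-coding genes with coding sequences under 500 bases had a median of 0.21, with 148 of 901 at that p, and 85 ribosomal protein genes one of 0.18. With the level of those other short genes as a covariate, chosen after seeing the data, the member median was 0.13 and the count at that p was 0. The share of all genes at that p in this fit is not given. That level followed the member mean (r = 0.94 over the resting libraries). Adjusting for it takes out much of any shift in the members, so this fit cannot tell where the shift comes from.

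The earlier days gave smaller medians of both signs. At day 0, before any tamoxifen, the median was -0.10 (-0.35 to 0.20 when 1 library was left out), and edgeR called 0 of 79 members beside 0.00487% of all genes. At an unadjusted p under 0.05 there were 4 members, all lower (Ndufb6, Atp5pb, Atp5j, Uqcrb), beside 10.8% of all genes. The libraries were at 6.86 and 6.51 in plusFoxp3 and 7.05 and 6.56 in minusFoxp3, and 7 members were called without plusFoxp3 replicate 2, 1 higher and 6 lower, beside 10.2% of genes in that fit. Day 3 had a median of -0.16, with 0 of 79 called (0.0487% of genes) and 1 at an unadjusted p under 0.05 (11% of genes). That 1 was Sdha, higher by 0.33 (SE 0.14). Day 7 had a median of 0.07, with 0 of 80 called (0.0585% of genes) and 0 at an unadjusted p under 0.05 (5.71% of genes). Day 14 had a median of 0.25, with 76 of 80 members above 0, 0 called (0.268% of genes) and 3 at an unadjusted p under 0.05 (8.87% of genes), namely Cox6c, Ndufb8 and Atp5md, all higher. The day 14 median was 0.49 without minusFoxp3 replicate 1 and 0.11 without minusFoxp3 replicate 2, the libraries at 6.76 and 6.39.

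By complex, the resting medians went from -0.08 at day 0 to 0.43 at day 28 for complex I, from -0.16 to 0.44 for complex III, from -0.22 to 0.49 for complex IV and from -0.10 to 0.39 for complex V. Complex II, with 4 genes, went from 0.05 to 0.27. The minusFoxp3 cells themselves had a lower member median at day 28 than at day 0 (-0.28, with 8 of 80 members above 0). That comparison had 0 members called by edgeR (0% of genes) and DESeq2 and 1 at an unadjusted p under 0.05 (3.66% of genes), Ndufa6. It shares the day 28 minusFoxp3 libraries with the day 28 comparison above. Its median ranged from -0.45 to 0.03 when 1 library was left out.

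**Figure D2:**
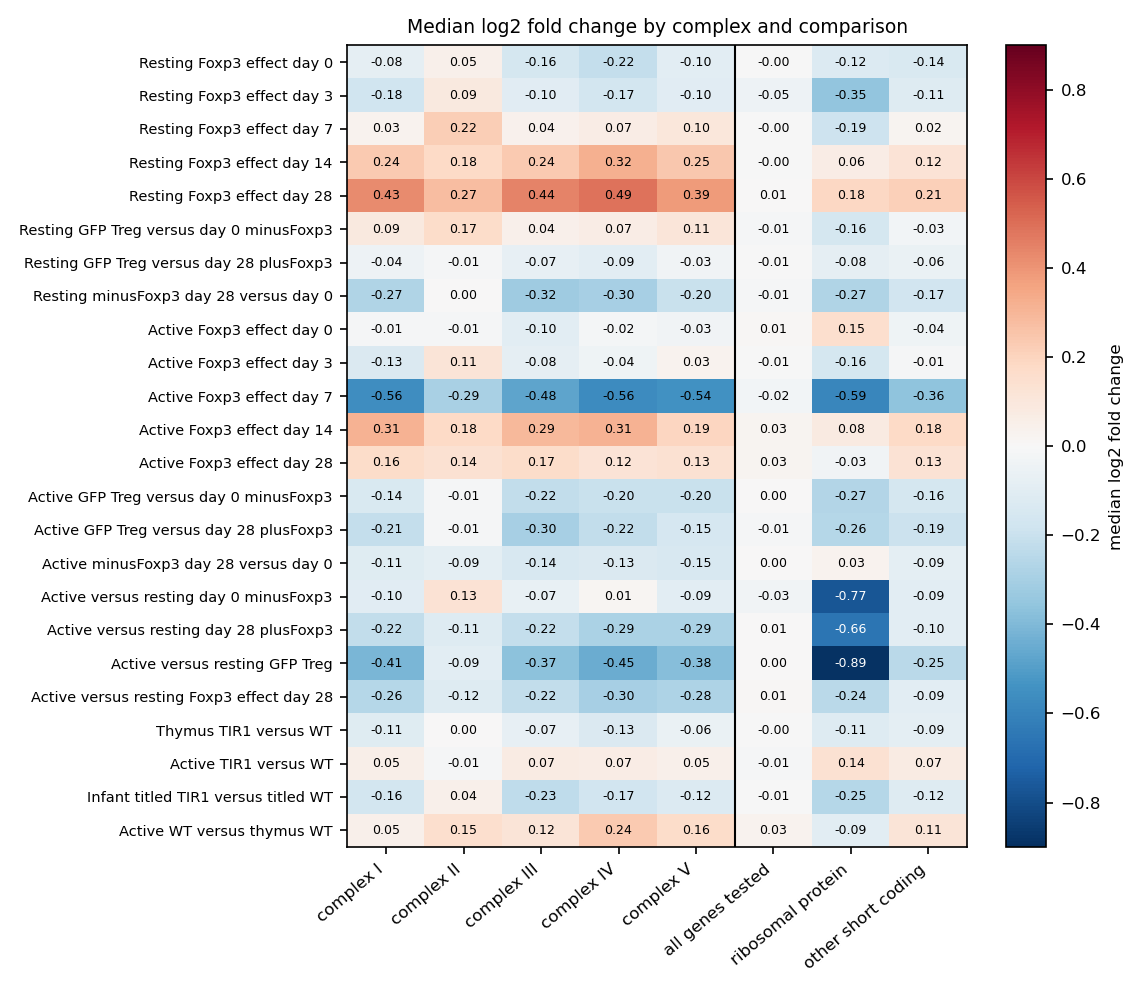
Heat map of the median log2 difference (colour and printed value) of the members of each complex and of 3 reference sets (columns: all genes tested, ribosomal protein genes, other coding genes under 500 bases) in the 24 comparisons (rows). Complexes I, III, IV and V range from 0.39 to 0.49 in resting cells of day 28 and from -0.56 to -0.48 in active cells of day 7, where complex II is at 0.27 and -0.29.

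Resting GFP Treg cells, which had Foxp3 throughout, had member means of 6.94 and 6.90. Against day 0 minusFoxp3 the median was 0.08, with 0 of 80 called (2.91% of genes) and 0 at an unadjusted p under 0.05 (12.5% of genes). Against day 28 plusFoxp3 it was -0.06, with 0 called (0.0341% of genes) and 0 at an unadjusted p under 0.05 (3.96% of genes). DESeq2 called 0 members in both, and the comparisons share the GFP libraries. The first median ranged from -0.12 to 0.37 and the second from -0.23 to 0.11 when 1 library was left out.

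In active cells the same question gave no common direction. At day 7 the median log2 difference of 81 members was -0.53, with 4 above 0. edgeR called 0 (0.568% of genes), and 25 were lower and 0 higher at an unadjusted p under 0.05 (13% of genes). DESeq2 called 3 beside 2.32% of genes: Atp5g1, Cox7a1 and Cox6a2. The last 2 were kept by the limit of 50 counts only through their minusFoxp3 libraries. The day 7 difference rests on 1 library: the minusFoxp3 replicates were at 7.40 and 6.48 and the plusFoxp3 replicates at 6.65 and 6.41. Without minusFoxp3 replicate 1 the median was 0.06 and 0 members were called, whereas without minusFoxp3 replicate 2 the median was -0.98 and 60 of 80 members were called, beside 11.7% of genes in that fit, 59 lower and 1, Ndufs1, higher.

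Atp5g1, a c subunit gene of the ATP synthase, had the lowest p at day 7, at 66.1 and 62.5 CPM in plusFoxp3 and 154 and 81.3 in minusFoxp3 (log2 difference -0.86, SE 0.24, adjusted p = 0.156). Cox4i1, a regulatory subunit of complex IV, was at 353 and 310 against 625 and 311, and Cox7b at 111 and 91.3 against 218 and 96.9. Ndufa4 was at 144 and 123 against 290 and 128. In these last 3 the groups overlapped, and the first minusFoxp3 library alone was high. The same library was the lowest for the large subunits Sdha (431 and 365 against 299 and 392) and Ndufs1 (133 and 133 against 87.7 and 130.2), and Atp5b was at 1305 and 1186 against 1342 and 1348. Ribosomal protein genes had a median of -0.59 in that comparison and other short coding genes one of -0.36.

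The other days in active cells had member medians of -0.02 at day 0, -0.06 at day 3, 0.30 at day 14 and 0.15 at day 28. At day 0 edgeR called 0 of 81 (0.00481% of genes) and 0 had an unadjusted p under 0.05 (4.58% of genes). Day 3 gave 0 of 80 called (0.274% of genes) and 0 at that unadjusted p (7.4% of genes). Day 14 gave 0 of 81 called (0.732% of genes) and 1 at that p (10.2% of genes). Day 28 gave 0 of 81 called (1.85% of genes) and 1 at that p (11% of genes). DESeq2 called 0, 0, 1 and 0 members, the 1 at day 14 beside 2.49% of genes in its fit. The 1 member at days 14 and 28, also the 1 called by DESeq2, was Cox6a2, which met the limit only through the minusFoxp3 group and is described below. At day 14 the plusFoxp3 libraries were at 6.96 and 6.77 and the minusFoxp3 libraries at 6.56 and 6.68, and 70 of 81 members were above 0. At day 28 they were at 6.72 and 6.78 against 6.77 and 6.43, with 63 of 81 members above 0. MinusFoxp3 cells of day 28 against day 0 had a median of -0.13 (-0.38 to 0.13 when 1 library was left out), with 0 called by edgeR (0% of genes) and DESeq2 and 0 at an unadjusted p under 0.05 (2.64% of genes).

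Active GFP Treg cells were at 6.36 and 6.69, the first of these the lowest of the 44 libraries. Against day 0 minusFoxp3 cells, where 10% of all genes were called, edgeR called 0 of 80 members and the median was -0.16. At an unadjusted p under 0.05 there was 1 member (19.8% of genes), again Cox6a2, which DESeq2 called beside 12.6% of genes. Against day 28 plusFoxp3 cells the median was -0.21, with 9 of 79 members above 0, 0 called by edgeR (2.01% of genes) and DESeq2, and 0 at an unadjusted p under 0.05 (11.2% of genes). Both medians moved with the first GFP library, ranging from -0.44 to 0.06 and from -0.41 to -0.06 when 1 library was left out.

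Active and resting cells were compared within day 0 minusFoxp3, day 28 plusFoxp3 and GFP Treg cells. The member medians were -0.10, -0.24 and -0.40, with 25 of 81, 3 of 79 and 3 of 80 members above 0. The first ranged from -0.37 to 0.16 when 1 library was left out and so has no firm sign. In the same comparisons the ribosomal protein genes had medians of -0.77, -0.66 and -0.89, with 46, 23 and 39 of 85 called lower. In day 0 minusFoxp3 cells edgeR called 2 members beside 13.4% of genes: Cox7a2l lower, and Cox6a2, which met the limit of 50 counts only through 1 active library, so that its direction was set by the limit. 3 members had an unadjusted p under 0.05 (25.2% of genes), the third being Cox7a1, which likewise met the limit only through its active libraries. DESeq2 called all 3, beside 16.2% of genes. In GFP Treg cells edgeR called 1, Cox7a2l (3.12% of genes), as did DESeq2 (5.64% of genes). There 8 members had an unadjusted p under 0.05 (14.6% of genes), all lower. At day 28 plusFoxp3 edgeR called 0 (5.3% of genes) and 4 had an unadjusted p under 0.05 (17.1% of genes), all lower. DESeq2 called 2 there, Cox7a2l and Atp5a1 (7.87% of genes).

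Among the members that were not called, Atp5b was at 1197 and 1113 CPM in active and 1476 and 1332 in resting GFP Treg cells (log2 difference -0.28, SE 0.12, adjusted p = 0.231). Cox7a2 was at 81.3 and 109 against 144 and 136. Ndufa6 of complex I (-0.73, adjusted p = 0.180) and Uqcrh, the hinge protein of complex III (-0.59, adjusted p = 0.187), lay lower. The active GFP Treg library at 6.36 weighs here, since the member median was -0.24 without it and -0.61 without the other active library. The test of whether the Foxp3 difference at day 28 itself differed between active and resting cells called 0 of 79 members by edgeR (0.0818% of genes) and DESeq2, with 0 at an unadjusted p under 0.05 (5.58% of genes) and a median of -0.26.

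Cox7a2l was the 1 member that separated the states repeatedly. It lies at chr17:83809347-83824759 (GRCm39) and encodes SCAFI, a relative of the COX7A subunits with a reported part in joining complexes III and IV into supercomplexes. Neither the SCAFI protein, nor its function in these mice, nor supercomplexes were measured here. In the 22 active libraries Cox7a2l was at 92.2 to 139 CPM, and in the 22 resting libraries at 127 to 213, so the ranges touch only between 127 and 139. In day 0 minusFoxp3 cells it was at 106 and 93.1 CPM in active and 213 and 154 in resting libraries (log2 difference -0.88, SE 0.21, adjusted p = 0.0037). In GFP Treg cells it was at 92.2 and 104 against 181 and 171 (-0.84, SE 0.21, adjusted p = 0.0217). In day 28 plusFoxp3 cells it was at 101.1 and 99.4 against 153 and 162 (-0.65, SE 0.21, adjusted p = 0.0629). Within none of the 3 did the states overlap. The GFP Treg call was lost on leaving out any of its 4 libraries (adjusted p from 0.0624 to 0.289), and the day 0 call without resting replicate 1 (-0.63, adjusted p = 0.111) or active replicate 2 (-0.79, adjusted p = 0.0656). The day 0 call was also lost in a fit of its 4 libraries alone (-0.86, adjusted p = 0.0889).

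The degron set, with other animals and another counting setting, held the same contrast between a peripheral active and a thymic population. Cox7a2l was at 126, 93.0 and 90.1 CPM in active WT and at 209, 194 and 186 in thymic WT libraries (log2 difference -0.93, SE 0.17, adjusted p = 0.0075), and this call held without any 1 of the 6 libraries. It was not called with the files as attached in the record (-0.39, adjusted p = 0.0521). These groups differ in tissue as well as in state, which cannot be told apart. In plusFoxp3 against minusFoxp3 cells of the reversible set its log2 differences lay between -0.24 and 0.19 over both states and all days, and none was called. Of all counts on the 3 COX7A genes, Cox7a2l took 57.8% ± 3.22 (SD, n = 22) in resting and 48.4% ± 3.36 (SD, n = 22) in active libraries, and Cox7a2 took 42.1% and 51.0%. In thymic and active degron libraries the Cox7a2l share was 60.03% and 44.2%.

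**Figure D3:**
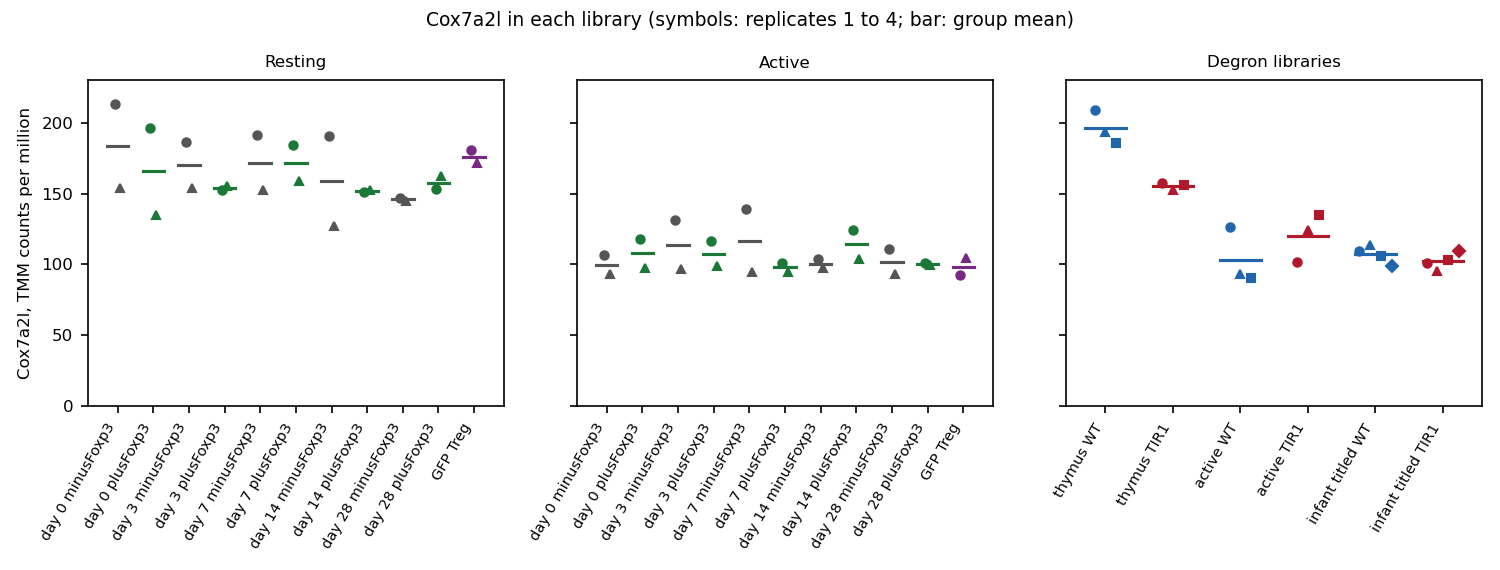
Cox7a2l in TMM CPM (y axis, from 0) in each library, by group (x axis), with symbols for replicates and bars for group means. Active libraries of the reversible set sit between 92.2 and 139 and resting ones between 127 and 213, and the thymic degron libraries between 152 and 209.

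Cox6a2, the heart and muscle isoform of complex IV subunit 6a (chr7:127804607-127805559, GRCm39), was at or near 0 in most libraries. It averaged 36.9 counts over the 44 libraries and met the limit of 50 only in comparisons that hold an active minusFoxp3 group, through that group, so its calls are no evidence of a direction and its values are given as a description. In active minusFoxp3 cells, replicates 1 and 2 had 0.0224 and 8.22 CPM at day 0, 2.84 and 0.447 at day 3, 0.612 and 9.12 at day 7, 0.155 and 4.79 at day 14, and 0.636 and 4.88 at day 28. It was at most 0.382 CPM in the 12 active plusFoxp3 and GFP Treg libraries, and 0 and 0.0204 in the 2 resting libraries of the day 0 comparison, which hold too few reads for a fold. The high values at days 0, 7, 14 and 28 were those of replicate 2 and at day 3 that of replicate 1. All 20 degron libraries were at 0.

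The libraries high in Cox6a2 were also those high in Siglech, a receptor of plasmacytoid dendritic cells. Siglech was at 2.36 and 78.6 CPM in the active minusFoxp3 replicates of day 0, 21.98 and 3.81 at day 3, 3.65 and 124 at day 7, 2.44 and 51.8 at day 14, and 5.20 and 67.0 at day 28, and at most 0.683 in active plusFoxp3 and GFP Treg libraries. The list Siglech, Klk1, Klra17, Ly6d, Pacsin1 and Bst2 was drawn up after these values were seen. Over the 22 active libraries, which share groups and sorting gates, Cox6a2 correlated with Siglech (r = 0.95, rho = 0.91, r = 0.93 without the 2 farthest libraries), Klk1 (0.96, 0.85, 0.94), Klra17 (0.91, 0.79, 0.86) and Ly6d (0.91, 0.76, 0.87). Pacsin1 (-0.11, -0.08, 0.11) and Bst2 (0.14, 0.11, 0.06) did not follow it, so 4 of the 6 genes did. The summed list was 111 to 414 CPM in active minusFoxp3 and 100.1 to 192 in active plusFoxp3 and GFP Treg libraries. The reported sort gate was CD4+ CD3+ TCRb+. The part of plasmacytoid dendritic cells in the Cox6a2 values was not tested.

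The isoform genes that mark other tissues or low oxygen stayed rare. Cox7a1, the muscle isoform, took 0.145% of COX7A counts in resting and 0.594% in active libraries, and was at 0.753 and 0.961 CPM in plusFoxp3 and 4.15 and 1.46 in minusFoxp3 active cells of day 7. Cox6b2, the testis isoform, took 0.558% of COX6B counts in resting and 0.264% in active libraries, 2.08% in thymic, 0.457% in active and 2.699% in infant degron libraries. It was at 4.27, 3.52 and 5.70 CPM in thymic WT and at 0.680, 0.310 and 1.62 in active WT degron libraries, and met the limit of 50 counts there through the thymic libraries. Cox4i2, the low-oxygen isoform of Cox4i1, took 0.0205% of COX4 counts in resting and 0.0148% in active libraries, and Cox8b, Cox8c and Ndufa4l2 averaged 0.909, 0.318 and 1.48 reads over the 44 libraries. Of the 3 genes for the identical mature c subunit of the ATP synthase, Atp5g3 took 75.9% ± 1.89 (SD, n = 22) of the counts in resting and 77.5% ± 2.11 (SD, n = 22) in active libraries, Atp5g1 took 21.5% and 20.1%, and Atp5g2 took 2.55% and 2.42%. These genes have near-identical copies elsewhere in the genome, so their shares are uncertain. Under 1 mapping quality minimum Atp5g2 took 0.427% in thymic and 9.42% in infant degron libraries, and Atp5g3 took 93.7% and 64.0%. The 13 subunits encoded by mitochondrial DNA were at 0 in thymic but at 3330 to 4229 summed CPM in infant libraries. Thymic and infant reads may therefore not have been aligned alike, and no difference between their shares is read from these values. What sets these shares was not tested.

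Loss of Foxp3 protein for 7 days was compared as TIR1 against WT. In thymic CD73- Treg cells the member mean was 6.67 ± 0.130 (SD, n = 3) in TIR1 and 6.76 ± 0.108 (SD, n = 3) in WT. edgeR called 0 of 78 members (0% of genes), 3 were lower at an unadjusted p under 0.05 (7.37% of genes), and the median was -0.09. Cox7a2l and Uqcrfs1 were among the 3. Cox7a2l was at 158, 152 and 156 CPM in TIR1 and at 209, 194 and 186 in WT without overlap (log2 difference -0.34, SE 0.08, adjusted p = 0.470). DESeq2 called this 1 member, beside 1.1% of genes. The attachment in the record exchanges TIR1 and WT, which turns the sign of this median and of the next 1 (here to 0.09).

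In active adult Treg cells the mean was 6.90 ± 0.115 (SD, n = 3) in TIR1 and 6.77 ± 0.407 (SD, n = 3) in WT. The WT libraries were at 7.23, 6.59 and 6.48 and the TIR1 libraries at 6.81, 6.84 and 7.03, inside the WT range. edgeR called 0 of 77 members (0% of genes), DESeq2 0, and 0 had an unadjusted p under 0.05 (4.62% of genes). The median was 0.06, but 0.41 without WT replicate 1, again with 0 called. Active WT against thymic WT cells, where 15.8% of genes were called, gave 1 member called by edgeR, Cox7a2l, and 5 at an unadjusted p under 0.05 (29.8% of genes). DESeq2 called 4, with Ndufa10 and Sdhd higher and Cox6b2 and Cox7a2l lower. The member median was 0.10. It was -0.22 without active WT replicate 1, with 7 members called lower (19.2% of genes in that fit), and 12 members were called with the files as attached in the record (23.4% of genes).

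In the infant libraries the member mean was 6.08, 6.01, 6.11 and 6.34 in titled TIR1 and 6.32, 6.31, 6.33 and 6.20 in titled WT libraries, with titled TIR1 replicate 4 highest of all 8. The median was -0.15, with 12 of 78 members above 0. edgeR called 0 members (0.0185% of genes), and 20 were lower and 0 higher at an unadjusted p under 0.05 (17.4% of genes), a share of the members not far above that of all genes. DESeq2 called 4 beside 6.84% of genes in its fit, all lower: Ndufa4, Cox7c, Ndufa6 and Atp5md. By complex the 20 were 8 of 36, 0 of 4, 3 of 8, 5 of 13 and 4 of 17 of complexes I to V. Without titled WT replicate 4 edgeR called 3, Ndufa4, Ndufa12 and Cox7c (11% of genes in that fit). The member median ranged from -0.23 to -0.11 when 1 library was left out.

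Atp5md, a small ATP synthase subunit of the membrane part, was at 37.8, 32.4, 40.2 and 42.6 CPM in titled TIR1 and 49.8, 45.4, 53.0 and 45.1 in titled WT libraries, without overlap (log2 difference -0.34, SE 0.10, adjusted p = 0.137). Ndufa4 was at 76.2, 75.3, 76.8 and 84.4 against 96.7, 89.4, 102 and 84.1 (-0.25, SE 0.08, adjusted p = 0.143), where the highest titled TIR1 and the lowest titled WT library cross. Uqcr11 was at 27.3, 25.9, 27.4 and 38.6 against 41.6, 41.3, 38.7 and 35.1 (-0.39, SE 0.13, adjusted p = 0.158). The large subunits did not share this shift: Atp5b was at 1209, 1285, 1226 and 1275 against 1170, 1202, 1235 and 1256, and Sdha at 423.9, 411, 423.9 and 401 against 407, 446, 439 and 424. Members with coding sequences under 1000 bases had a median of -0.20, with 20 of 64 at an unadjusted p under 0.05, and the 12 longer members had 0.01, with 0. Other short coding genes had a median of -0.12, with 246 of 830 at that p, and ribosomal protein genes one of -0.25, with 49 of 83. The median was -0.03 with the level of those other short genes as covariate. That level followed the member mean (r = 0.91 over the infant libraries), so this fit takes out much of any shift in the members. The 5 proliferation genes summed to 593 to 910 CPM in titled TIR1 and to 194 to 555 in titled WT libraries without overlap, and their part in the result was not tested. The header names go with these titles and the genotype field does not. Which genotype the titles stand for thus remains uncertain, and the direction carries that limit.

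The members varied together between libraries, which is given as a description. The median Pearson correlation of a member with the mean of the others was 0.877, and it was 0.889 in the 22 resting and 0.929 in the 22 active libraries. It was lower for longer coding sequences: the 44 members under 500 bases had 0.918, the 19 from there up to 1000 bases 0.877 and the 12 of 1000 or more 0.341. The Spearman correlation of this value with coding length, across members, was -0.55. Cox7b was highest in resting libraries, at 0.977, and Cox6b1 in active libraries, at 0.986. Ndufs1 was at -0.37 in resting and -0.76 in active libraries and Sdha at -0.18 and -0.54, so these 2 long genes ran the other way. Of the promoters printed above, the genes had correlations of 0.927 for Uqcr11, 0.199 for Uqcrc1, 0.962 for Atp5j2 and 0.482 for Cox7a2l. Members with an NRF1 element had a median of 0.92 against 0.88 without, with a YY1 element 0.88 against 0.89, and with an ETS element 0.88 against 0.89.

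**Figure D4:**
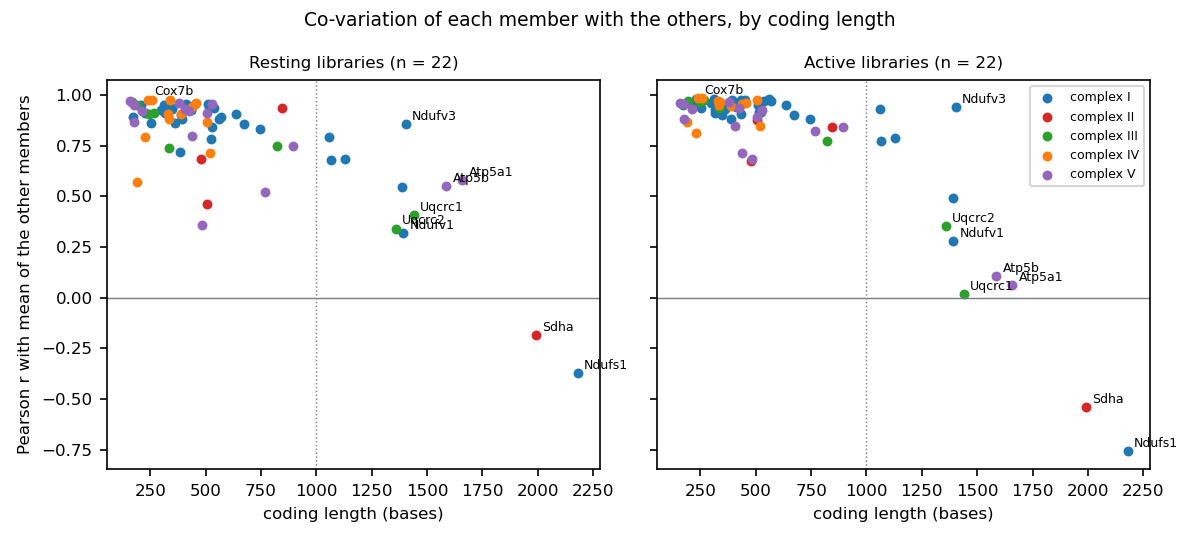
Pearson correlation of each member with the mean of the other members (y axis) against its coding length in bases (x axis, linear), in panels for 22 resting and 22 active libraries, coloured by complex; the dotted line marks 1000 bases. Short members crowd near the top and the long ones spread down to Ndufs1, at -0.37 in resting and -0.76 in active libraries.

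The level of all members also followed that of other short genes, which were chosen by length and not by function. The member mean correlated with the mean of other coding genes under 500 bases with r = 0.94 (rho = 0.88, r = 0.93 without the 2 farthest libraries) in resting, r = 0.96 (0.93, 0.90) in active and r = 0.91 (0.86, 0.85) in the 8 infant libraries. With ribosomal protein genes r was 0.78, 0.89 and 0.98. With Foxp3 r was 0.45 in resting and -0.06 in active libraries, and with total counts 0.21 in resting, -0.49 in active and 0.41 in infant libraries. In resting and in active libraries complexes I, III, IV and V correlated with each other at 0.97 to 0.99, and complex II with them at 0.72 to 0.80. In the 8 infant libraries these ranges were 0.946 to 0.984 and 0.0773 to 0.308. Of 14221 non-members, the 5 most alike over the 44 libraries were Sem1 (r = 0.962), Tmem258 (0.955), Mrpl20 (0.953), Tomm7 (0.953) and Elob (0.951), with coding lengths of 249 to 447 bases. The SD of the member mean within groups was 0.260 for members under 1000 bases and 0.0935 for longer ones. The part of transcript length in these values was not tested.

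**Figure D5:**
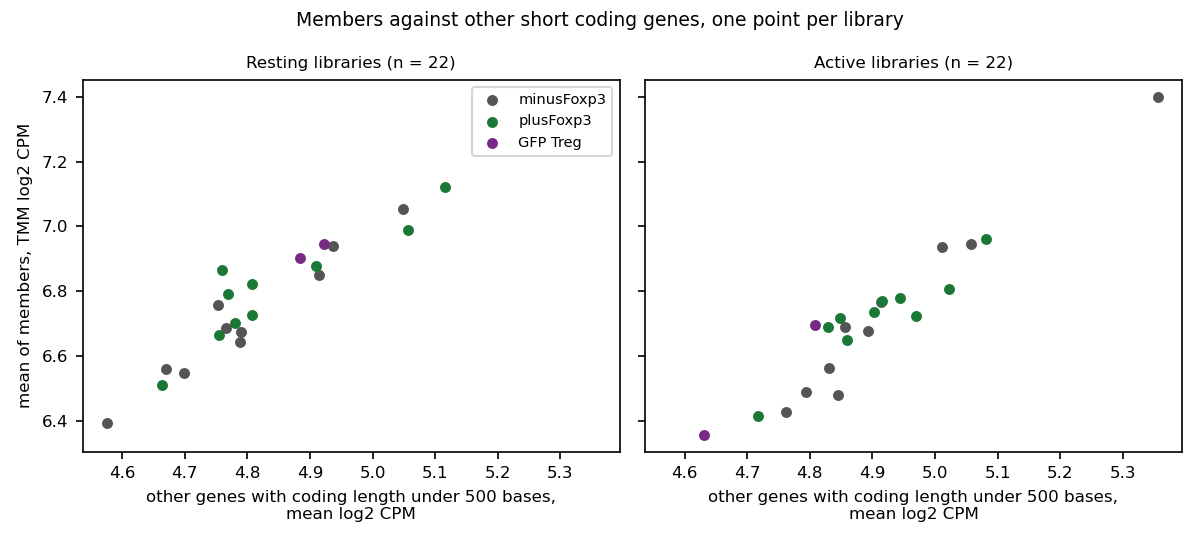
Mean log2 CPM of the members (y axis) against that of other coding genes under 500 bases (x axis), one point per library, in panels for 22 resting and 22 active libraries, coloured minusFoxp3, plusFoxp3 or GFP Treg. Resting and active libraries lie along a line (r = 0.94 and 0.96), with the active day 7 minusFoxp3 library at 7.40 at its upper end.

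The rest of the pathway was read from lists of assembly factors (43 of 45 measured), of carriers and substrate supply (23) and of regulators (15). In resting cells of day 28 edgeR called 0 of each, with 4, 2 and 0 at an unadjusted p under 0.05 (8.9% of all genes), and the medians were 0.12, 0.04 and -0.06. The 13 subunits encoded by mitochondrial DNA are listed at 0 in all 56 reversible and adult degron libraries and were measured in the infant files, where 10 passed the count filter. In titled TIR1 against titled WT edgeR called 0 of these 10, with 4 lower at an unadjusted p under 0.05 and a median of -0.22. Gpd2, the glycerol phosphate dehydrogenase that passes cytosolic electrons to ubiquinone, was called in 3 comparisons. It was lower in resting GFP Treg cells against day 0 minusFoxp3 (12.7 to 17.3 against 46.7 to 53.1 CPM, log2 difference -1.73, SE 0.25, adjusted p = 0.000775) and in active GFP Treg cells (11.2 to 14.8 against 38.0 to 40.2 CPM, -1.56, SE 0.30, adjusted p = 0.0026), and was lower in active than in thymic WT degron cells (-1.19, adjusted p = 0.0086). At day 28 in resting cells it was at 19.1 to 29.6 CPM in plusFoxp3 and 47.4 to 51.1 in minusFoxp3, and was not called.

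In active against resting cells 3 of 81 pathway genes were called in day 0 minusFoxp3, 4 in day 28 plusFoxp3 and 1 in GFP Treg cells, against the 13.4%, 5.3% and 3.12% of all genes given above. Myc, a driver of mitochondrial gene expression in growing T cells, was lower in active than in resting cells in day 0 minusFoxp3 (-0.80, adjusted p = 0.000976), day 28 plusFoxp3 (-0.86, adjusted p = 0.0014) and GFP Treg cells (-0.80, adjusted p = 0.0054). Sdhaf1, an assembly factor for the iron-sulfur clusters of complex II, was lower at day 0 (-1.45, adjusted p = 1.1e-05) and day 28 (-0.72, adjusted p = 0.0322). Idh3a of the citric acid cycle was higher at day 0 (0.81, adjusted p = 0.0026), and Idh2 (-0.72, adjusted p = 0.0194) and Suclg1 (-0.49, adjusted p = 0.0356) were lower at day 28. In active GFP Treg cells against day 0 minusFoxp3, 4 of 81 were called beside 10% of all genes, Gpd2 among them. Sdhaf1 (1.36, adjusted p = 0.0019) and Esrra, a nuclear receptor of mitochondrial genes (0.93, adjusted p = 0.0132), were higher and Cox10, which acts in making the heme of complex IV (-0.99, adjusted p = 0.0172), was lower. Atpif1, the inhibitor of the ATP synthase in reverse, was 0.97 higher in resting plusFoxp3 cells of day 28 (SE 0.30, adjusted p = 0.227), and 0.46 without plusFoxp3 replicate 1 and 0.42 with the short-gene covariate. It was called without the count filter (adjusted p = 0.0125) and with the replicate block (adjusted p = 0.0148).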

How the data were processed

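The authors prepared SMART-Seq v4 libraries and deposited 1 table of read counts per gene and library. Per the file headers, read pairs were counted without strand by featureCounts 2.0.3 on GENCODE vM30 (GRCm39), and the 20 degron files also with primary alignments and a mapping quality minimum of 30. The labels name Bowtie2, featureCounts and DESeq2, and the study's methods name STAR. These raw counts were tested in R 4.3.3 with the quasi-likelihood test of edgeR 4.0.16 (TMM, robust), on genes with a mean count of at least 10 in the fit, adjusted by Benjamini-Hochberg over all genes tested and called at 0.05. Resting, active, both states together, and each degron comparison were fitted separately. DESeq2 1.42.0, other scalings, no filter, a replicate block and leaving out each library were alternatives. The scripts were tested on simulated data.

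Adult degron files were assigned by the library named in the header, which in 12 of 12 belongs to the other genotype than the attached sample. Named genes were fixed role anchors, isoforms of other tissues, the called members of largest change without overlap, and the 5 non-members most alike in pattern. Members named for an unadjusted p, or for what DESeq2 called, were chosen after their values were seen, as were the plasmacytoid dendritic cell list, the coding length classes and the short-gene covariate. The members and lists were chosen with earlier results of these data known. Coding lengths come from the supplied annotation and were found for 75 of the 79 members. Atp5a1 and Atp5b are older symbols of Atp5f1a and Atp5f1b, and Atp5g1 to Atp5g3 of Atp5mc1 to Atp5mc3. Exact depth per library limits low genes, and p-values cover the spread between libraries only. Values of 1 complex I subunit and of 1 marker list are not reported here.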

Additional observations from a re-analysis of the deposited data

Results flagged for a closer look

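In the 4 infant titled WT libraries, replicate 4 stood apart for complex I, with a mean of 5.74 log2 CPM against 5.87 to 5.89 in the other 3, and for ribosomal protein genes, with a mean of 7.11 log2 CPM. Of 16 such tests on infant groups of 4, chance flags about 1 in 20. The infant comparison without this library had a member median of -0.18 and 3 members called.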

How the results depend on the processing

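No member median changed sign under another scaling, DESeq2, no filter, the replicate block or a fit of only the libraries compared, and library totals alone moved no call. These counts of called members moved: without a count filter, 1 in active cells of day 0, 4 of day 7, 1 of day 14, 1 of day 28, 1 in active GFP Treg against day 0 and 1 in active against resting day 28 plusFoxp3; by DESeq2, 3, 1, 1 and 2 for active day 7, day 14, GFP Treg against day 0 and active against resting day 28 plusFoxp3, and 1, 4 and 4 for thymus, infant and active against thymic WT cells; 1 at day 28 plusFoxp3 by RLE size factors; 1 in active GFP Treg against day 0 at a member minimum of 10; 0 in active against resting day 0 on the libraries compared alone. Without a filter the shares of all genes called in the comparisons listed for it were 0.685%, 2.02%, 1.72%, 2.39%, 6.01% and 3.97%, in that order. The RLE fit called 5.32% of genes and the fit with the member minimum of 10 called 10%. With the files as attached in the record, active against thymic WT called 12 (23.4% of genes) and the thymus median was 0.0913. With the level of other short coding genes as covariate (chosen after seeing the data, not run for the 3 adult degron comparisons), the median was 0.13 in resting day 28, 0.17, 0.0197 and -0.0373 in active day 7, 14 and 28, 0.14 and 0.19 in active GFP Treg against day 0 and day 28, -0.12 in active against resting GFP Treg, -0.0721 for the interaction and -0.0278 in infants. That covariate gave 3, 13 and 7 members called in active GFP Treg against day 0, and in active against resting day 0 and day 28. The shares of all genes called in these fits were 10.3%, 18.2% and 8.23%. The covariate followed the member mean with r = 0.94 in resting, 0.96 in active and 0.91 in infant libraries. Smaller medians under it therefore do not tell where a shift comes from.

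Same-numbered libraries deviated together with correlations from -0.19 to 0.38 over the 24 comparisons, and from 0.13 to 0.28 among the day 28 groups. The groups of the reversible set share only 2 numbers, too few for these correlations to show a pairing. Replicate 1 did have the higher member mean in 11 of 11 resting and 8 of 11 active groups, which the main fits do not model. With the replicate block, 2 members were called in active against resting day 28 plusFoxp3 beside 6.9% of genes, with Cox7a2l at an adjusted p of 0.0086. In resting day 28, 54 of 80 had an unadjusted p under 0.05 with the block (29 without it). The share of all genes at that p under the block is not given, so the rise has no background beside it. The block moved no other count of calls past 1.5 times.

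On leaving out 1 library (64 refits), the calls ranged from 0 to 7 in resting day 0, 0 to 60 in active day 7, 0 to 1 in active GFP Treg against day 0, 0 to 2 in active against resting day 0, 0 to 0 in GFP Treg, 0 to 3 in infants and 1 to 7 in active against thymic WT. The medians ranged from -0.35 to 0.20 in resting day 0, -0.38 to 0.13 in active minusFoxp3 day 28 against day 0, -0.37 to 0.16 in active against resting day 0, -0.26 to 0.0241 in resting day 3, 0.11 to 0.49 in day 14 and 0.25 to 0.56 in day 28, -0.12 to 0.37 and -0.23 to 0.11 in resting GFP Treg against day 0 and day 28, -0.45 to 0.0321 in resting minusFoxp3 day 28 against day 0, -0.28 to 0.22, -0.17 to 0.074 and -0.98 to 0.0628 in active day 0, 3 and 7, -0.44 to 0.0594 and -0.41 to -0.0613 in active GFP Treg against day 0 and day 28, -0.40 to -0.0923 and -0.61 to -0.24 in active against resting day 28 and GFP Treg, -0.42 to -0.062 for the interaction, -0.10 to 0.41 in active TIR1 and -0.22 to 0.29 in active against thymic WT.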
